A study of Mus musculus with 24 samples.

Results

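The control cardiomyocytes of this study are the 6 libraries titled Ctrl, taken from 24 libraries in all, and they are described here across genes. They were chosen by their sample titles alone. The control mice were Rosa-Cas9/Cas9, with no Mrtf allele listed, received AAV-Cre, an adeno-associated virus that delivers Cre recombinase, on postnatal day 1, and were 4 weeks old when cells were taken. The series text names the strain Rosa-Cas9GFP for the animals without the Mrtf alleles. The 3 other groups hold 6 libraries each at the same age. MKO mice shared the control genotype and received AAV-Myocd-sgRNA. DKO mice were Mrfta-/-; Mrtfb-F/F; Rosa-Cas9/Cas9, as the labels spell it, and received AAV-Cre. TKO mice had that same genotype and received AAV-Myocd-sgRNA. So the control cells are not wild-type cells: they carry a Cas9 allele at the Rosa locus, which every group carries, and were exposed to a Cre virus. Cells were freed by Langendorff perfusion, an enzymatic digestion through the coronary vessels, sorted by fluorescence, and their polyadenylated RNA was copied with a full-length cDNA kit that does not mark the strand.

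Cardiomyocytes contract by sliding thick filaments of myosin along thin filaments of actin, under the control of the troponin complex and of calcium released from the sarcoplasmic reticulum. The mouse heart exchanges fetal isoforms of these proteins for adult ones around birth, among them beta myosin (Myh7) for alpha myosin (Myh6) and slow skeletal troponin I (Tnni1) for cardiac troponin I (Tnni3). Mitochondria that burn mainly fatty acids supply the ATP, and a set of sodium, calcium and potassium channels shapes the action potential.

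Levels are given on 2 scales. CPM is the count of a gene divided by the effective library size, on the scale its name gives, and serves to compare libraries. The length-scaled level is the count per kilobase of the gene's exons, scaled to the same total in each library, and serves to compare genes. Errors are SDs over the 6 libraries. The control libraries held between 8017413 and 11496873 counts, and between 14072 and 14741 of 23337 genes had at least 1 count. A count of 0 in a library allows up to 0.277 to 0.373 CPM, depending on the library, from counting error alone. In the 15 pairs of control libraries, chi-square per gene ran from 6.51 to 26.6, so no pair agreed within sampling noise. The labels do not tie libraries to animals, and the p-values therefore reflect library-to-library spread alone, which may be technical. Transcripts of Y-linked genes were present in 4 of 6 control libraries, 4 of MKO, 1 of DKO and 3 of TKO, so the groups compared below were not balanced for sex, and its part in the differences was not tested. The control libraries did not stand at equal distance from each other: Ctrl 2 and Ctrl 3 had the lowest correlation of any pair (r = 0.919 across 8199 genes), and results that rest on them are given with and without them. Reads from overlapping genes cannot be told apart without strand. Genes that share exons or near-identical sequence with another gene are named as uncertain where they occur.

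The 4 genes used as markers of these cells were among the strongest signals. Actc1, cardiac alpha-actin (chromosome 2, 114047289 to 114052811, minus strand, mm10), had length-scaled levels of 39516, 35616, 39560, 36852, 34514 and 36254 in Ctrl 1 to 6. Myh6, alpha myosin heavy chain (chromosome 14, 54941921 to 54966607, minus strand), had 28586, 25351, 28059, 23531, 30265 and 34048. For neither gene did a library stand far from the rest, and Myh6 varied more than Actc1. Myl2, the ventricular regulatory light chain, had 11325, 12233, 11667, 12504, 10047 and 9814. Titin, the giant spring protein encoded by Ttn, had 142.7, 125.0, 110.2, 81.2, 76.5 and 73.5. Titin, whose exons sum to 104320 bases, stood far below the other 3 per length, although Ttn held 4964 ± 1349 CPM. Whether reads covered the whole of so long a transcript was not tested. Ttn also had the largest spread of the 4, and Ctrl 1 to 3 lay above Ctrl 4 to 6.

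Among the 23337 genes counted, none of them on the mitochondrial chromosome, the most abundant transcripts encoded sarcomere and mitochondrial proteins. The highest mean length-scaled level was that of Actc1 (37052 ± 2076, n = 6), followed by Myh6 (28307 ± 3701) and the cardiac troponin T gene Tnnt2 (23049 ± 1227). Next came the ventricular essential light chain Myl3 (17114 ± 1133), cardiac troponin I Tnni3 (16229 ± 1007) and the oxygen store myoglobin, Mb (15173 ± 751). Atp5b, the catalytic beta subunit of ATP synthase, reached 14006 ± 1194 and Slc25a4, the carrier that exports ATP from mitochondria, 12997 ± 1135. Tropomyosin (Tpm1, 12291 ± 698) and Myl2 (11265 ± 1116) closed the first 10, all of which exceeded 10000. Apart from Mb, Atp5b and Slc25a4, all of them encode sarcomere proteins. On the CPM scale, which favours long transcripts, Myh6 alone held 80693 ± 9325 CPM, and the calcium pump gene Atp2a2, which refills the sarcoplasmic reticulum, came next with 24658 CPM, close to the 24255 CPM of Actc1. Atp2a2 had length-scaled levels of 8547, 7464, 7589, 9014, 10639 and 11823 in Ctrl 1 to 6.

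**Figure D1:**
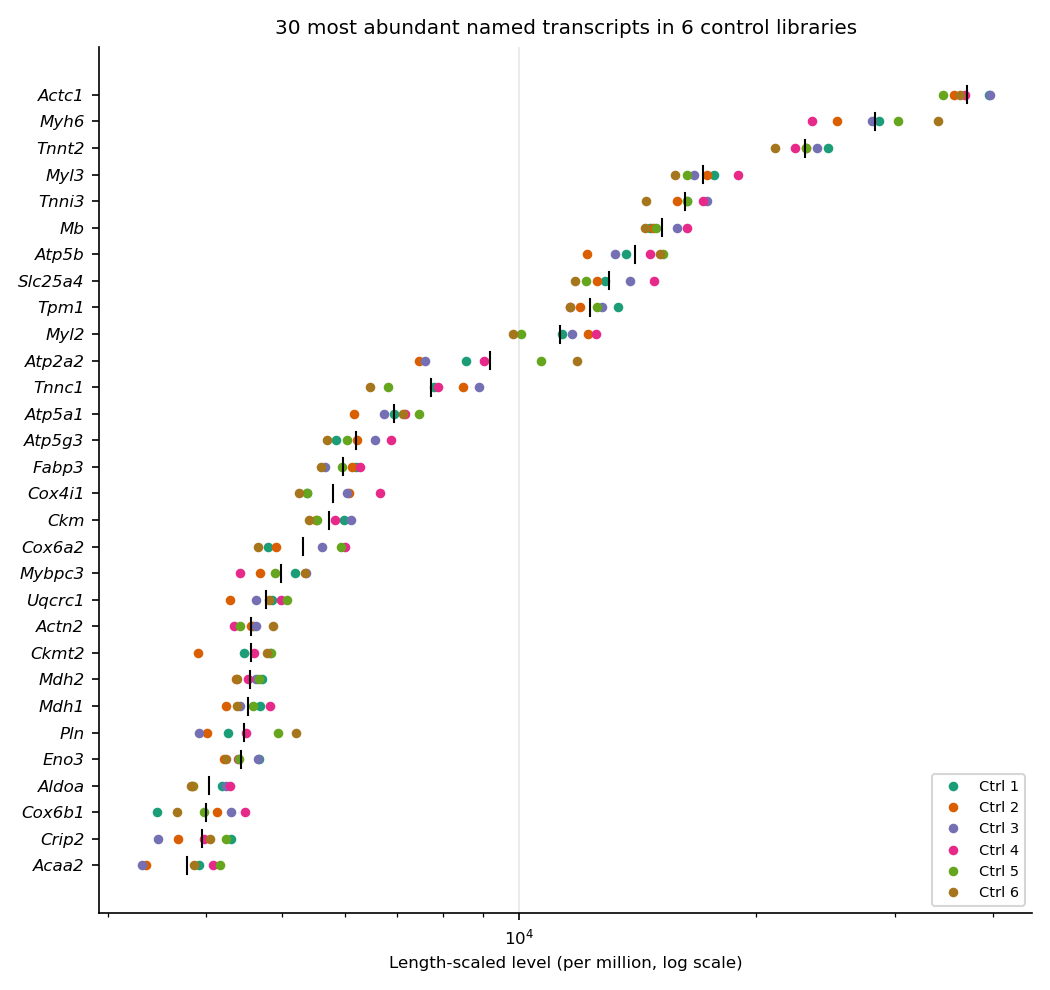
Length-scaled level of the 30 most abundant named transcripts (log scale), with 1 point per control library and a bar at the mean. Actc1 stands at 37052 and the last of the 30, Acaa2, at 3784, and the 6 libraries lie close together for each gene.

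A small number of genes held much of each library. No gene of the mitochondrial chromosome was in the counts, so the shares here and below leave such transcripts out. The 10 highest genes held 18.8 ± 0.451% of the summed length-scaled level, the 100 highest 44.0 ± 1.18% and the 1000 highest 73.2 ± 1.43%. Between 139 genes (Ctrl 4) and 184 genes (Ctrl 2) made up 50% of a library on this scale. By counts without length the 100 highest held 38.8 ± 1.15%. At a mean level of at least 1000 stood 130 genes, at least 100 stood 1369, at least 10 stood 7317 and at least 1 stood 11638, while 6852 genes had no count in any control library.

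The contractile lists, with 64 genes of thick filament, thin filament, Z-disc and M-band together, held 18.6 ± 0.567% of the summed level, and the lists of oxidative phosphorylation, fatty acid oxidation and glycolysis with creatine, 124 genes, held 21.9 ± 0.961%. Within the thick filament the order fell steeply from Myh6, Myl3 and Myl2 to myosin-binding protein C (Mybpc3, 4981 ± 380) and the cardiac light chain kinase Mylk3 (698 ± 94.7). Within the thin filament it ran from Actc1, Tnnt2, Tnni3 and Tpm1 to troponin C (Tnnc1, 7717 ± 934), smooth muscle alpha-actin (Acta2, 928 ± 167) and leiomodin 2 (Lmod2, 360 ± 44.1), which lengthens thin filaments. At the Z-disc the crosslinker alpha-actinin 2 (Actn2, 4568 ± 183) led, followed by the LIM protein gene Fhl2 (3614 ± 253), desmin (Des, 2656 ± 156), Csrp3 (2549 ± 270) and the titin cap Tcap (2189 ± 307). Of the 64 genes, 60 had a mean level of at least 1.

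Calcium handling was led by Atp2a2, its inhibitor phospholamban (Pln, 4469 ± 512) and calsequestrin 2 (Casq2, 2029 ± 109), which stores calcium inside the reticulum. The release channel Ryr2 had 136 ± 20.7 per length, with exons of 16813 bases, and the junctional proteins Jph2 and Trdn had 251 ± 10.6 and 249 ± 7.39. These 2 means differed by less than the SD of either gene. Respiratory chain genes followed Atp5b at high levels: Atp5a1 had 6923 ± 444, Atp5g3 6207 ± 439, Cox4i1 5795 ± 553 and the muscle isoform Cox6a2 5317 ± 600. All 51 genes of the oxidative phosphorylation list, none on the mitochondrial chromosome, had a level of at least 1. The list held 12.01 ± 0.665% of the summed level. In fuel use the fatty acid carrier Fabp3 (5967 ± 284) and the thiolase Acaa2 (3784 ± 364) led the fatty acid list, and muscle creatine kinase (Ckm, 5732 ± 291), its mitochondrial partner Ckmt2 (4568 ± 351), Eno3 (4427 ± 195) and Aldoa (4039 ± 221) led the glycolysis and creatine list after Mb and Slc25a4.

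Several genes of these lists stood low where the counting could be the limit. Cpt1b, the muscle carnitine palmitoyltransferase, had 14.1 ± 1.91, and 94.8% of its exon bases overlap another gene of the table. Eno1 had 1.08 ± 0.327 with 92.85% overlap. Gapdh had 135 ± 15.5, and 52.6% of its 50-base words also occur in transcripts of other genes, as do 64.8% of those of Pgk1 (37.9 ± 2.79). Over the whole table, 632 genes (2.71%) overlap another gene by at least 50% of their exon bases, and their median level was 0 against 1.201 for the rest. The levels of such genes are uncertain, and the haemoglobin genes Hba-a1, Hba-a2 and Hbb-b1, which overlap other genes by 99.46%, 98.76% and 96.81% and are listed at 0 in every control library, cannot report on red cells.

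The contractile genes were compared with the sequence before their start sites, because the study targets coactivators of serum response factor, which binds the CArG box. Promoter windows of 250 bases before each RefSeq start (GRCm38.p6) were available for 53 of the 64 contractile genes, giving 69 windows. A CArG box occurred in 11 of the 69 windows (15.9%), against 1.47% of all 32851 windows and 1.18% of the 11781 windows of genes with a level of at least 1. A sequence that matches the CArG pattern also matches it on the opposite strand, though the letters read there can differ. The element of MEF2 occurred in 11.6% of the contractile windows, 2.92% of all and 1.79% of those of genes with a level of at least 1. Among the 111 windows of the 100 most abundant transcripts, 4 held a CArG box. For oxidative phosphorylation, with 42 windows of 38 genes, no window held a CArG or MEF2 element, and TATAAA occurred in none against 12.4% of all windows and 6.49% of those of genes with a level of at least 1. Both strands were searched for every element. These matches describe letters in a window, not bound sites. The 11 boxes fall at 10 places of 9 genes, because the 2 start sites of Ldb3 share a box, and are printed with 20 bases on each side, the box in capitals:
Actc1, chr2:114052893-114052942, minus strand: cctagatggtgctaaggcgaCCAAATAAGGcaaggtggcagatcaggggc
Myl3, chr9:110763573-110763622, plus strand: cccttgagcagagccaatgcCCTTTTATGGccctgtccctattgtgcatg
Fhl2, chr1:43163963-43164012, minus strand: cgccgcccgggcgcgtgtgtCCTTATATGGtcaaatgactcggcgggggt
Fhl2, chr1:43196828-43196877, minus strand: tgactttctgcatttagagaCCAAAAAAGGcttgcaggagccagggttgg
Ldb3, chr14:34588687-34588736, minus strand: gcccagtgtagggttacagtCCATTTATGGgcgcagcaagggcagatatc
Myom1, chr17:71019438-71019487, plus strand: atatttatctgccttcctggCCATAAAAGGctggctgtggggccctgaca
Acta1, chr8:123894819-123894868, minus strand: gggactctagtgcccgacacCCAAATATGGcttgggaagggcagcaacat
Nebl, chr2:17462989-17463038, minus strand: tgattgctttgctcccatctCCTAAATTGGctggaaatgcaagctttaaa
Fhl1, chrX:56779561-56779610, plus strand: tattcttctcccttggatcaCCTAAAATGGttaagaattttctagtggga
Myl7, chr11:5898814-5898863, minus strand: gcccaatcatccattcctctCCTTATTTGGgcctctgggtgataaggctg

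The 9 genes with a box ranged widely in level. Actc1, whose box starts 47 bases before its RefSeq start, stood at 37052 and Myl3, with a box at 85 bases, at 17114. All distances are from the RefSeq start of the window, which for Actc1 lies outside the gene bounds given above. Fhl2 had 3614, Ldb3 554 ± 38.8, the M-band gene Myom1 520 ± 51.2 nebulette (Nebl) 123 ± 27.4 and Fhl1 77.8 ± 9.90. The skeletal actin gene Acta1, with a box at 73 bases, had 204 ± 142, and the atrial light chain gene Myl7, with a box at 61 bases, 48.5 ± 71.9. So a box stood before the most abundant contractile transcript and also before genes at a small part of the level of their cardiac relatives.

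Isoform shares were taken as the part that 1 gene holds of the summed length-scaled level of its family. In the control cells the fetal, skeletal or atrial isoform of 5 contractile pairs held at most 1.62% in any library. Myh7 held 0.474, 0.530, 0.367, 0.262, 0.217 and 0.262% of Myh6 plus Myh7 in Ctrl 1 to 6, and Ctrl 1 and Ctrl 2 were the highest. Of all 50-base words of Myh6 and Myh7, 21.9% and 21.2% also occur in transcripts of other genes, so these shares rest on the rest of each gene. Tnni1 held 0.789, 0.926, 0.382, 0.280, 0.629 and 0.721% of its sum with Tnni3. Acta1 held 0.462, 0.483, 1.18, 0.575, 0.267 and 0.242% of its sum with Actc1, with Ctrl 3 above all others. Myl7 held 0.300, 0.123, 1.62, 0.0353, 0.390 and 0.0601% of its sum with Myl2, and Myl4, the atrial essential light chain, 0.115, 0.1001, 0.356, 0.0550, 0.129 and 0.0575% of its sum with Myl3. Ctrl 3 was highest for both atrial light chains, and without it the Myl7 share did not exceed 0.390%.

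Other contractile and calcium families were as one-sided. Skeletal isoforms held 0.405 ± 0.0551% (Tnnt1 of the troponin T genes) and 0.00389 ± 0.00145% (Atp2a1 of the reticulum calcium pumps). Tnnc2 held at most 0.00734% of the troponin C genes, and Ryr1 had a share above 0 in Ctrl 6 only, at 0.0267% of the ryanodine receptors. Casq1, the skeletal calsequestrin, held more, 1.99 ± 0.750%, and Ctrl 3 was again highest at 3.39%. Non-muscle actinin Actn1 held 0.224 ± 0.0447% of its family. Gja5, the connexin of the fast conduction fibres, held 0.318 ± 0.171% of the connexins Gja1, Gja5 and Gjc1.

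Metabolic families were mixed. The broadly expressed Cox7a2 held 41.5 ± 2.38%, Cox8a 24.03 ± 2.27% and Cox6a1 10.5 ± 1.23%, the remainder of each being the heart and muscle isoform. Hexokinase 1 (Hk1) held 72.0 ± 1.41% against Hk2, and lactate dehydrogenase A (Ldha) 38.0 ± 1.11% against Ldhb. The widely expressed glucose transporter Slc2a1 held 3.06 ± 1.02% beside the insulin-dependent Slc2a4, which had 343 ± 34.9. Cpt1a held 80.9 ± 1.25% beside Cpt1b, a share that the overlap of Cpt1b leaves uncertain.

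The shares of 8 pairs were compared with the 3 other groups by two-sided exact permutation tests of 6 against 6 libraries, adjusted by Benjamini-Hochberg over 24 tests, with 0.00216 the smallest p possible. Of the 24, 5 had an adjusted p under 0.05, and 4 of these were in TKO. The Tnni1 share was 2.98 ± 2.64% in TKO against 0.621 ± 0.247% in Ctrl, with 6 of 6 TKO libraries above every control (exact permutation p = 0.00216, adjusted p = 0.0260). TKO 1 was highest at 7.95%, and without it the difference was 1.37 percentage points in place of 2.36, with the call kept. The Myh7 share was 1.26 ± 1.29% against 0.352 ± 0.128%, with 5 of 6 TKO libraries above every control (exact permutation p = 0.00649, adjusted p = 0.0312). TKO 4 stood at 3.88% and the other 5 between 0.438 and 0.882%, and without TKO 4 the difference was 0.380 percentage points in place of 0.904 and the call was lost (exact permutation test, adjusted p = 0.0520). The Kcnd3 share of the transient outward channel pair Kcnd2 and Kcnd3 was 12.2 ± 2.59% in Ctrl, 20.98 ± 7.86% in DKO (exact permutation p = 0.00649, adjusted p = 0.0312) and 30.1 ± 8.30% in TKO (p = 0.00216, adjusted p = 0.0260, 6 of 6 libraries above). Without DKO 1, at 36.5%, the DKO difference was 5.67 percentage points in place of 8.77, with the call kept. Cpt1a was higher in TKO at 86.5 ± 2.67% (exact permutation p = 0.00649, adjusted p = 0.0312). No share passed in MKO, where the smallest adjusted p by the exact permutation test was 0.0714, for Cpt1a. With any 1 control library left out, none of the 5 passed (exact permutation tests, adjusted p between 0.0520 and 0.126), and none passed without Ctrl 2 and Ctrl 3. With 5 against 6 libraries the smallest exact p is 0.00216, which is 0.0520 after adjustment where 1 test of the 24 reaches it. The differences themselves changed little: Kcnd3 in TKO lay 17.3 to 18.8 percentage points above Ctrl with 1 control left out, against 17.9 with all.

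**Figure D2:**
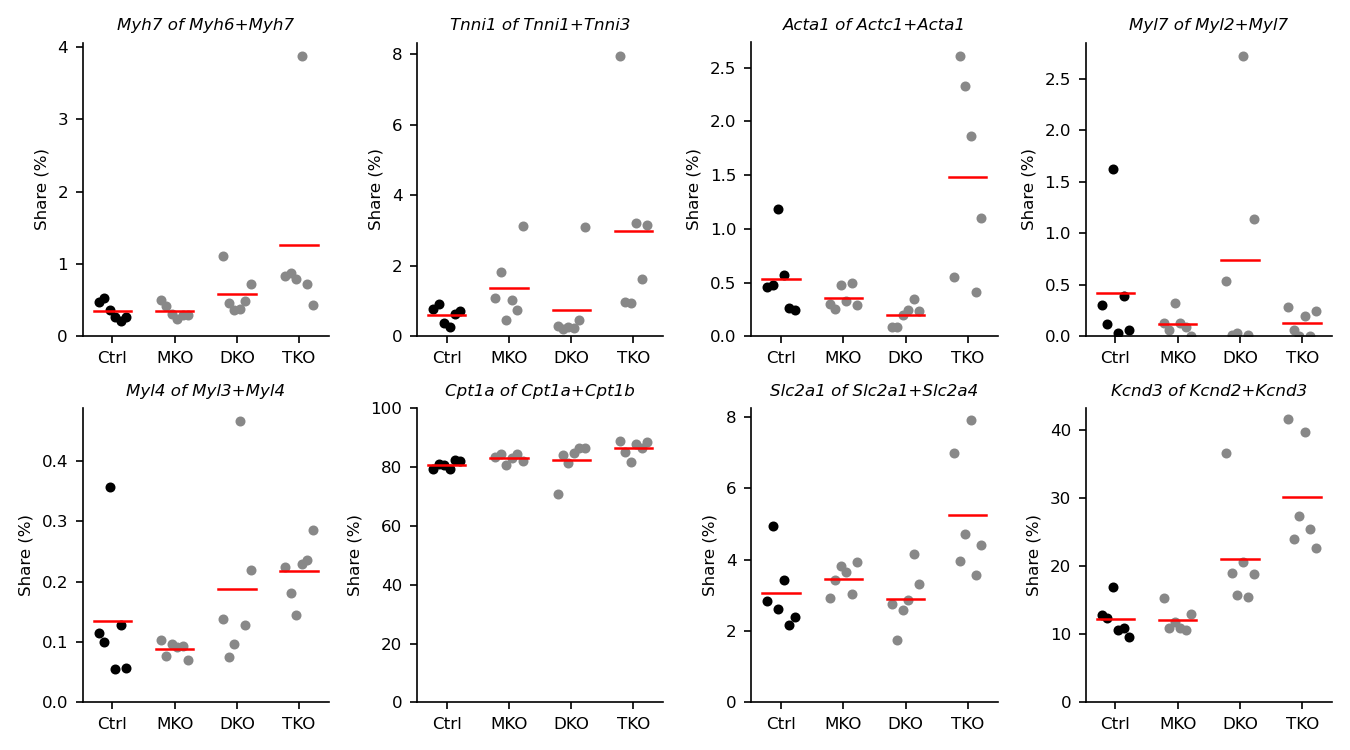
Share of each named gene in the summed length-scaled level of its pair, in percent, with 1 point per library and a red bar at the group mean (controls in black). For Tnni1 and Kcnd3 all 6 TKO points lie above all 6 control points.

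Transcription factors of the heart held little of the library. The 43 genes of the cardiac list summed to 2923 ± 149 CPM, and 35 of them had a length-scaled level of at least 1. Hopx, a homeodomain protein without DNA contacts of its own, was the highest with 736, 709, 647, 771, 838 and 736 in Ctrl 1 to 6. Gata4, a zinc finger factor of heart formation, had 220, 185, 208, 166, 209 and 241, and Nkx2-5, a homeobox factor, 132, 115, 121, 105, 130 and 106. Between them stood Mef2a (155 ± 28.0), Lbh (132 ± 25.4) and the histone methyltransferase gene Smyd1 (124 ± 24.7), and after them Mef2d (110 ± 12.5), Gata6 (93.4 ± 12.8), Irx4 (74.9 ± 15.1), Prox1 (59.8 ± 13.4) and Tbx20 (44.4 ± 6.31). From Mef2a to Mef2d each gene differed from the next by less than the larger SD of the pair. Isl1, a factor of the early heart field, had no count in any of the 6 libraries.

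The targeted coactivators and their partner were present. Myocd, myocardin (chromosome 11, 65176571 to 65269989, minus strand), had length-scaled levels of 74.6, 105, 73.7, 65.1, 64.8 and 81.4. Its relatives were lower: Mkl2 (Mrtfb) had 12.1, 12.7, 10.5, 9.77, 11.01 and 13.8, and Mkl1 (Mrtfa) 3.78, 5.61, 3.11, 2.04, 3.50 and 3.69. The ranges of the 3 coactivators did not overlap, so Myocd was the highest and Mkl1 the lowest in every control library. Srf, the DNA-binding partner, had 51.3, 39.1, 45.3, 41.9, 36.8 and 40.4. Mkl1 stood at 7.74 CPM in Ctrl against 1.995 in DKO and 2.12 in TKO (log2 ratios -1.92 and -1.86, edgeR adjusted p = 7.56e-06 and 8e-07), and Mkl2 at 49.0 against 33.0 and 35.5 (-0.57 and -0.46, edgeR adjusted p = 0.00603 and 0.0041). Srf fell from 81.9 to 42.8 CPM in TKO (-0.93, edgeR adjusted p = 6.97e-05). Myocd was at 185 CPM in Ctrl and 144 in MKO (log2 ratio -0.37 ± 0.13 SE, edgeR adjusted p = 0.717), and 245 in TKO (0.40, edgeR adjusted p = 0.0437). A guide RNA can disrupt a gene without lowering its counts, so this level does not check the MKO or TKO labels.

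Beside the 2923 ± 149 CPM of the cardiac factors, the list of metabolic regulators summed to 2800 ± 193 CPM. Nfe2l1, which controls proteasome genes, led the list at 255 ± 35.7, followed by Ppargc1a, the coactivator of mitochondrial biogenesis, at 119 ± 50.5, Esrra at 107 ± 8.60 and Ppargc1b at 103 ± 10.5. Ppargc1a was the least steady of these, with 93.9, 208, 79.1, 150, 81.9 and 100 in Ctrl 1 to 6. Klf15, a nutrient-responsive zinc finger gene, had 54.2, 61.6, 39.8, 128, 52.5 and 71.2, with Ctrl 4 far above the rest. Of the 30 members of that list, 28 had a level of at least 1.

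Among ion channels, the L-type calcium channel gene Cacna1c had 62.0, 62.1, 47.7, 46.9, 48.2 and 65.4 in Ctrl 1 to 6, and its beta subunit gene Cacnb2 72.4 ± 10.4. The T-type gene Cacna1g had 14.02 ± 2.98. In 2 potassium channel pairs the auxiliary subunit stood above its own pore gene. Kcnip2, which binds the transient outward channel, had 235, 254, 283, 266, 261 and 284, while its pore genes Kcnd2 and Kcnd3 had 19.5 ± 3.34 and 2.65 ± 0.348. Kcne1 had 233 ± 33.8 beside its pore gene Kcnq1 with 69.7 ± 4.68. Kcnh2, the rapid delayed rectifier, had 93.4 ± 12.8.

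The background potassium channel gene Kcnk3 had 191 ± 11.5, and the inward rectifier genes Kcnj12, Kcnj11 and Kcnj2 lay together at 42.1 ± 4.22, 41.4 ± 2.96 and 40.1 ± 8.42, within the SD of each other. The regulatory subunit genes Abcc9 and Abcc8, partners of Kcnj11 in the ATP-sensitive channel, had 148 ± 33.2 and 86.6 ± 7.92. Of the pacemaker genes Hcn2 had 48.5 ± 6.01 and Hcn4 2.72 ± 0.908. Gja1, connexin 43, which couples neighbouring myocytes, had 1438, 1126, 1073, 897, 1501 and 1546. A pair of potassium channel genes varied far more than the others: Kcna5 had 6.43, 31.8, 0.905, 8.67, 6.32 and 9.82, and Kcnj8, a marker of pericytes, 11.2, 41.8, 2.26, 7.60, 9.39 and 11.3. Both were highest in Ctrl 2 and lowest in Ctrl 3, like the endothelial markers described with the other cells, and the part of other cells in their levels was not tested.

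**Figure D3:**
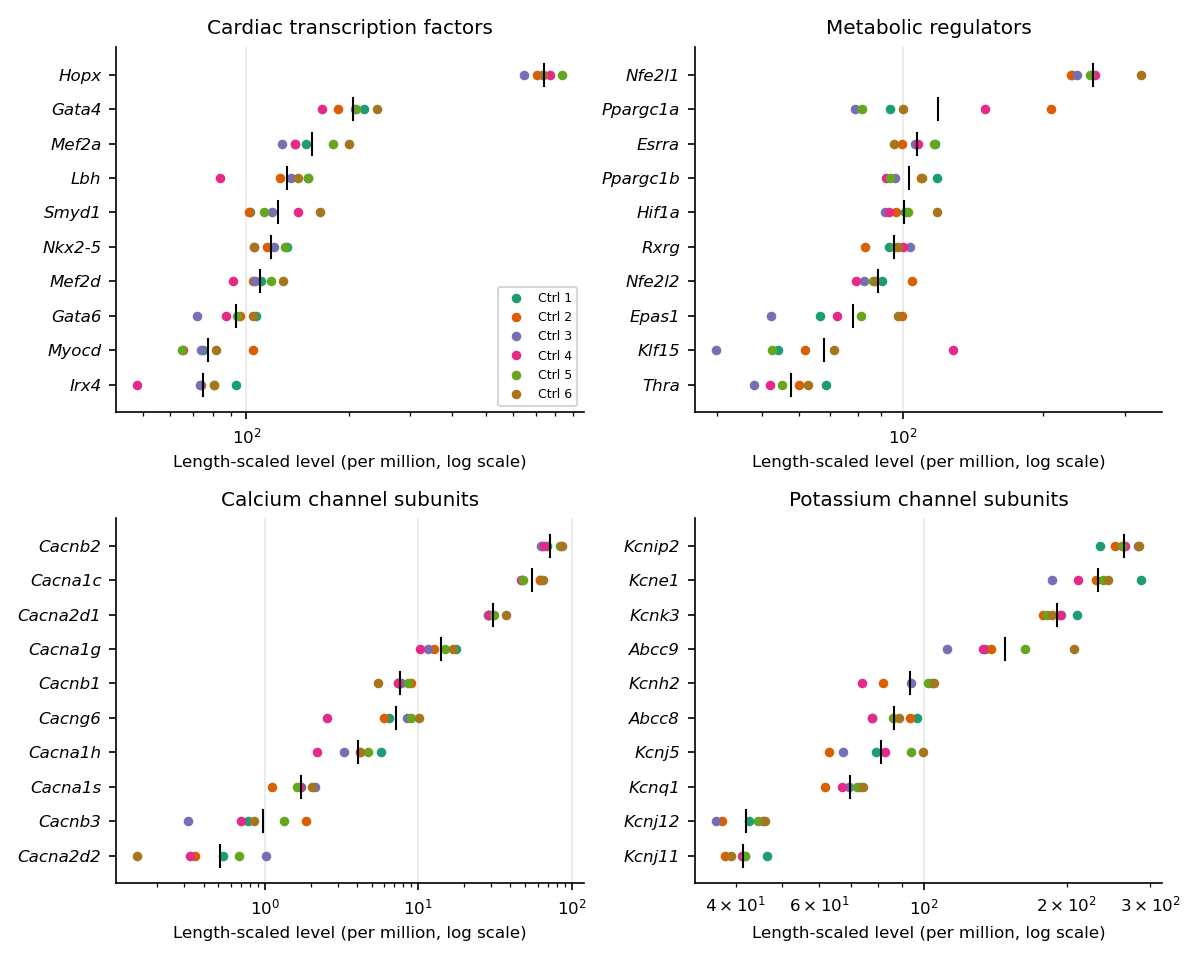
Length-scaled level (log scale) of the 10 highest cardiac transcription factors, metabolic regulators, calcium channel subunits, and potassium channel subunits, with 1 point per control library and a bar at the mean. Hopx leads at 740, Cacnb2 at 72.4 and Kcnip2 at 264, and Klf15 in Ctrl 4 lies apart at 128.

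The spread between the control libraries was small for most genes and large for few. Over the 3396 genes with a mean of at least 50 CPM, the median SD of log2 CPM was 0.159 (quartiles 0.119 and 0.208), where counting error alone would give 0.0488. For 79.0% of them the highest library was under 1.5 times the lowest, for 4.12% it was over 2 times, and for 38 genes (1.12%) over 4 times. The median SD was 0.123 for MKO, 0.287 for DKO and 0.159 for TKO. Without Ctrl 2 and Ctrl 3 the control median was 0.133. The common biological coefficient of variation, edgeR's estimate of the relative spread beyond counting, was 0.211 for the controls, beside 0.148 for MKO, 0.274 for DKO and 0.192 for TKO. It was 0.162 without Ctrl 2, 0.197 without Ctrl 3 and 0.141 without both. Genes between 1.001 and 5.61 CPM had a median SD of 0.468, and those above 72.1 CPM 0.160.

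Genes of the myocyte lists had median spreads near that of all genes, in part above it. Over the 8199 genes with at least 10 CPM the median SD was 0.177. It was 0.211 for the contractile lists together, 0.207 for the cardiac transcription factors and 0.196 for oxidative phosphorylation. For glycolysis and creatine it was 0.169 and for calcium handling 0.176. It was 1.08 for endothelial markers, 0.909 for fibroblast markers, 1.18 for atrial markers, 0.649 for immediate early genes and 0.417 for the fetal and stress list. Without Ctrl 2 and Ctrl 3 the endothelial median was 0.226, the fibroblast median 0.557, the atrial median 0.474 and the immediate early median 0.470. The fetal and stress median was then 0.448, the contractile median 0.172 and the median of all genes 0.152. Actn2 was steadier than the contractile median, with an SD of 0.0823 on the log2 scale and 6297, 5967, 6953, 6607, 6072 and 6541 CPM. The smallest spread of any gene with at least 50 CPM was that of Ttc3, a ubiquitin ligase gene, at 173, 170, 171, 171, 172 and 175 CPM, and Supt5h, Wdr26 and Fbxw8 came next. Such values are the lowest of 3396 and were chosen for being so.

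**Figure D4:**
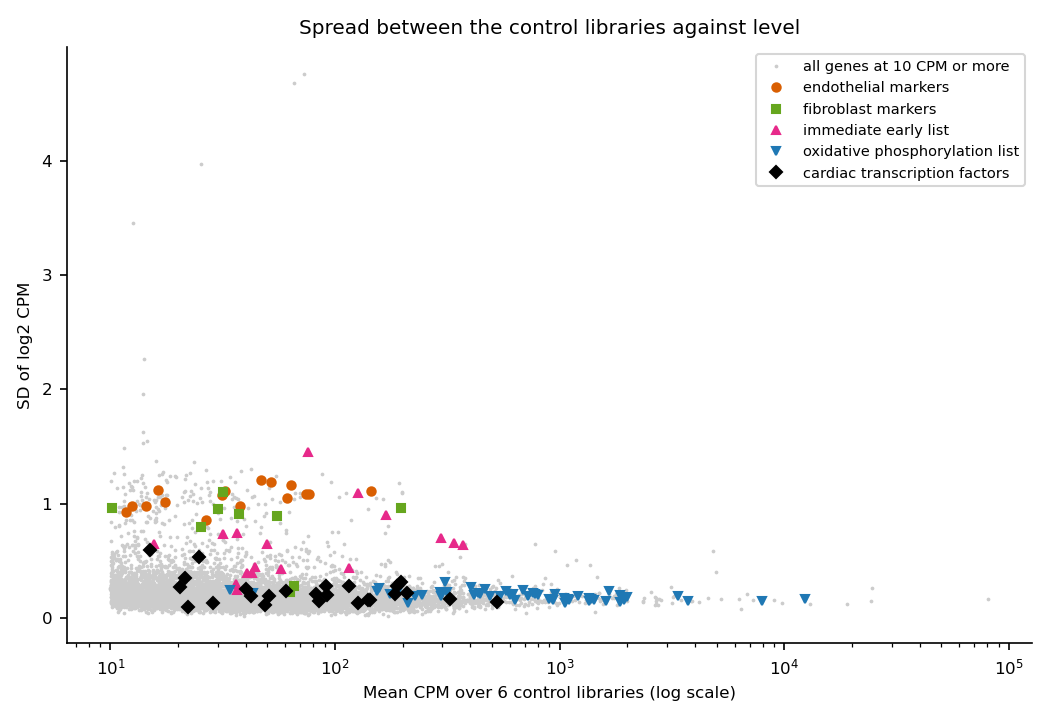
SD of log2 CPM over the 6 control libraries against mean CPM (log scale), 1 point per gene of at least 10 CPM, with 5 gene lists in colour. Oxidative phosphorylation genes (median SD 0.196) lie in the main band, and endothelial markers (median 1.08) above it. The few points above an SD of 3 are Y-linked genes.

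Among the genes with the largest spread, 2 libraries were most often at the ends. Of the 100 genes with the largest SD, 54 were highest in Ctrl 2 and 52 lowest in Ctrl 3, against 9.60% and 13.1% of all 3396 genes. In the same 3396 genes Ctrl 2 was the lowest library for 42.9%. A principal component analysis of log2 CPM put Ctrl 2 (0.746) and Ctrl 3 (-0.633) at the ends of the first component, which held 48.2% of the variance. Apart from Y-linked genes, those with a large spread included the endothelial receptor gene Kdr (122, 368, 33.1, 91.3, 115 and 135 CPM in Ctrl 1 to 6). Others were the lipid carrier Fabp4 (68.5, 312, 29.1, 85.9, 80.5 and 92.7 CPM) and the caveola protein gene Cav1 (148, 524, 47.4, 130, 163 and 178 CPM). The transcription factor gene Ets1 had 58.4, 173, 16.04, 46.4, 62.6 and 63.8 CPM. In each of these Ctrl 2 was the highest and Ctrl 3 the lowest library. Not all genes with a large spread ran this way. Atf3, with an SD of 1.45, was highest in Ctrl 3 (243 CPM) and lowest in Ctrl 6 (15.7 CPM). Of the 100 genes, 18 were highest in Ctrl 3 and 15 in Ctrl 1.

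RNA of other heart cells was present at low level in every control library. In such bulk samples, fewer cells of a type and less of an RNA in each cell cannot be told apart. All 17 endothelial markers had a level of at least 1, and together they summed to 551, 1846, 179, 500, 629 and 634 CPM in Ctrl 1 to 6, a 10.3-fold range. Pecam1, an adhesion molecule of endothelial cells, had 54.8, 194, 18.5, 46.1, 71.3 and 62.5 CPM. Fibroblast markers summed to 569, 708, 247, 376, 881 and 388 CPM, with the collagen gene Col3a1 at 254, 266, 61.8, 119, 364 and 118 CPM, so Ctrl 5 was highest for fibroblast markers and Ctrl 2 for endothelial ones. Leukocyte markers summed to 9.13, 16.2, 6.34, 12.3, 20.96 and 9.05 CPM, and 7 of 16 reached a level of 1, while the pan-leukocyte gene Ptprc stood at 0.103. Adipocyte markers had no member at a level of 1, and Cidec had no count in any control library. The 4 classes of endothelial, fibroblast, mural and leukocyte markers together summed to 2193 ± 857 CPM, beside 178522 ± 12105 CPM for the 15 ventricular markers. Of the former sum, Acta2 alone held 777 CPM.

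Smooth muscle alpha-actin stood far above the other mural genes. Acta2 had length-scaled levels of 1084, 1087, 818, 1058, 713 and 807, whereas the smooth muscle genes Tagln, Myh11 and Cnn1 had 2.52 ± 1.33, 2.26 ± 1.58 and 0.257 ± 0.154. The other 11 markers of smooth muscle and pericytes together had 141, 363, 58.1, 102, 126 and 129 CPM, highest in Ctrl 2 and lowest in Ctrl 3. On that scale Acta2 had 887, 847, 732, 961, 585 and 648 CPM, highest in Ctrl 4 and lowest in Ctrl 5. Across the 6 libraries Acta2 and these markers had Pearson r = 0.19 (exact permutation p = 0.768, adjusted 0.922) and Spearman rho = 0.0857 (exact permutation p = 0.919), and r = -0.353 without Ctrl 2 and Ctrl 3.

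Relations between cell markers were tested for 6 pairs, with p-values adjusted over the 6. Ventricular markers and the summed markers of the other 4 classes were inversely related (Pearson r = -0.985, exact permutation p = 0.00417, adjusted p = 0.025, Spearman rho = -0.943, exact permutation p = 0.0167, adjusted 0.1). Without Ctrl 2 and Ctrl 3, the farthest libraries, r was -0.778. Both sums are parts of the same library total. With any 1 library left out r lay between -0.993 and -0.972, but the relation did not pass after adjustment. The smallest adjusted p in any alternative was 0.05 (exact permutation test). With 5 libraries there are so few pairings that the test could hardly pass. Leukocyte and fibroblast markers had r = 0.874 (exact permutation p = 0.0236, adjusted 0.0708) and rho = 0.829 (exact permutation p = 0.0583), and r = 0.512 without Ctrl 3 and Ctrl 5. Fibroblast and endothelial markers had r = 0.742 (exact permutation p = 0.0861, adjusted 0.172) and rho = 0.714 (exact permutation p = 0.136), and r = 0.444 without Ctrl 2 and Ctrl 3. Neither pair passed after adjustment. Nppa and the atrial markers had r = 0.631 (exact permutation p = 0.164, adjusted 0.246), rho = 0.371 (exact permutation p = 0.497) and r = 0.316 without Ctrl 2 and Ctrl 3. Immediate early genes and the markers of other cells had r = 0.00094 (exact permutation p = 0.997), rho = -0.0857 (exact permutation p = 0.919) and r = 0.668 without Ctrl 2 and Ctrl 3.

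Atrial transcripts were highest in Ctrl 3. Myl7 had 9.25, 3.90, 57.1, 1.33, 10.7 and 1.57 CPM, and the 13 atrial markers without Nppa summed to 99.1, 118, 240, 70.85, 83.1 and 72.2 CPM. Natriuretic peptide genes followed in part: Nppa had 243, 147, 403, 253, 64.5 and 50.7 CPM and Nppb 104, 108, 189, 113, 19.2 and 42.0 CPM. Ctrl 3 was highest and Ctrl 5 and Ctrl 6 lowest for both. Acta1 had 121, 108, 342, 156, 60.95 and 56.8 CPM.

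Immediate early genes and nuclear RNA also differed between the control libraries, and their relation to each other was not tested. The 25 immediate early genes, which cells switch on within minutes of a stimulus, summed to 2490, 2255, 2755, 1008, 1642 and 1254 CPM. Jun had 483, 360, 546, 172, 251 and 226 CPM, Fos 240, 87.3, 189, 33.3, 151 and 56.6 CPM, Dusp1 438, 432, 517, 150, 372 and 310 CPM, and Atf3 95.5, 51.2, 243, 24.1, 28.0 and 15.7 CPM. The nuclear noncoding RNA Malat1 had 6754, 6670, 6116, 3275, 3110 and 3003 CPM, and Neat1, the scaffold of paraspeckles, 956, 1293, 944, 496, 410 and 557 CPM. Fos did not divide Ctrl 1 to 3 from Ctrl 4 to 6, with 151 CPM in Ctrl 5 and 87.3 CPM in Ctrl 2. Ctrl 1 to 3 lay above Ctrl 4 to 6 for Malat1, Neat1, Jun and Dusp1, as they did for titin. The labels give no batch, date or preparation that would divide these libraries, so what they share was not tested. The second principal component held 24.2% of the variance. On it Ctrl 4 (0.525) and Ctrl 5 (0.504) lay opposite Ctrl 3 (-0.522), Ctrl 1 (-0.326) and Ctrl 2 (-0.284), with Ctrl 6 at 0.103. Sex-linked transcripts summed to 25.6 and 20.05 CPM in Ctrl 4 and Ctrl 5, and to at least 247 CPM in the others. The part of sex in this component was not tested.

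**Figure D5:**
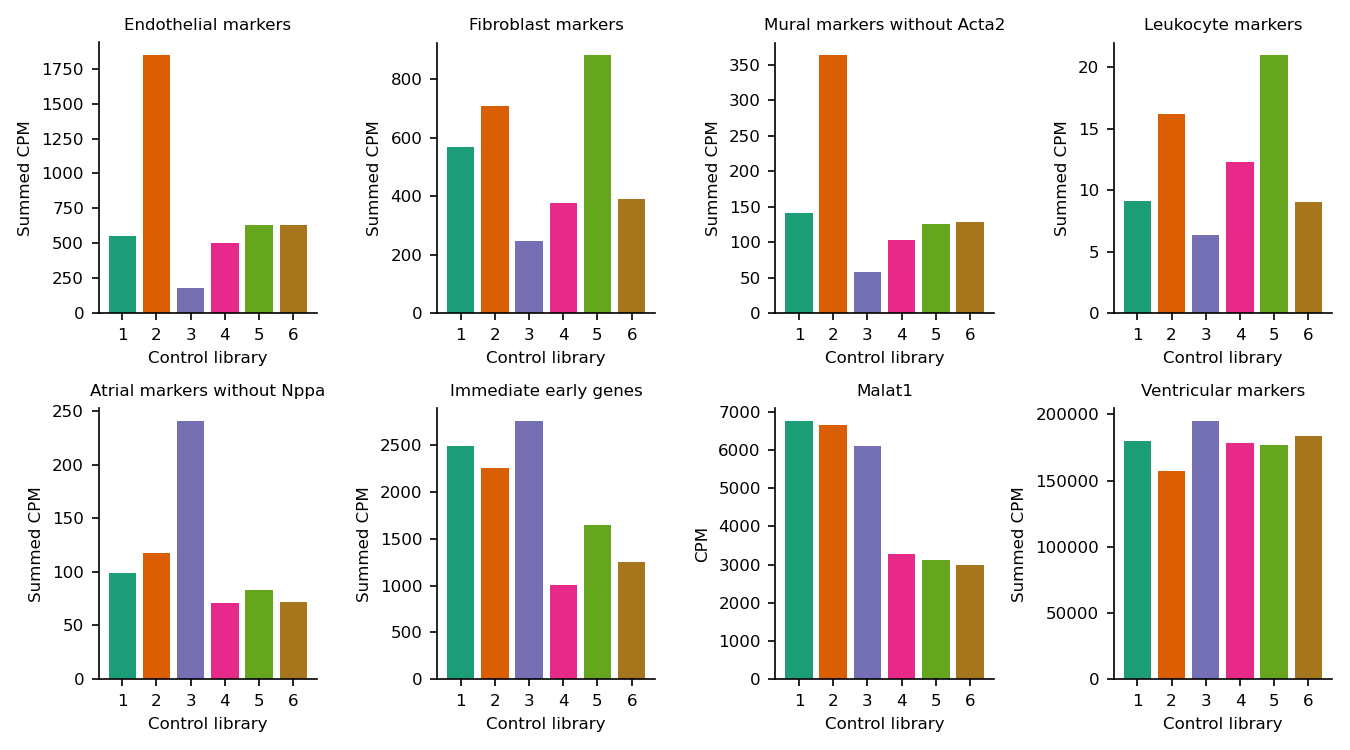
Summed CPM of 7 marker lists and CPM of Malat1 in each of the 6 control libraries, 1 bar per library. Endothelial markers peak in Ctrl 2 (1846), atrial markers in Ctrl 3 (240), and Malat1 is at least 6116 in Ctrl 1 to 3 and at most 3275 in Ctrl 4 to 6.

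The control levels were then set beside the other groups. The counts of all 24 libraries entered edgeR's quasi-likelihood test, and calls were made at 0.05 after Benjamini-Hochberg adjustment over 12281 genes. The 3 comparisons share the control libraries. In MKO 0 genes were called (0%), with 762 at an unadjusted p under 0.05 and 1 called by DESeq2, so none of the 100 most abundant control transcripts was called. In DKO 78 genes were called (0.635%, with 0.301% higher and 0.334% lower), among them 1 of the 100, Casq2, which fell by 0.36 on the log2 scale (2349 CPM in Ctrl, 1833 in DKO, edgeR adjusted p = 0.0265, 6 of 6 DKO libraries below every control). This call was lost without Ctrl 1, 3, 4, 5 or 6 and without DKO 2, 4, 5 or 6. In TKO 1734 genes were called (14.1%, with 8.14% higher and 5.98% lower), and 26 of the 100, of which 25 fell and 1 rose. Without Ctrl 3 and DKO 1, 48 of the 100 were called. The median log2 ratio of the 100 in TKO was -0.25, beside -0.01 over all genes tested.

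The abundant transcripts that fell in TKO included the top of the control order. Actc1 fell from 24255 to 10804 CPM (log2 ratio -1.17 ± 0.19 SE, edgeR adjusted p = 0.000131) and Myh6 from 80693 to 52152 CPM (-0.63 ± 0.18 SE, edgeR adjusted p = 0.0179), with 6 of 6 TKO libraries below every control for each. Ckm (-1.62), Tnnc1 (-0.90), Myl3 (-0.76), Tpm1 (-0.72), Sdha (-0.54) and Atp2a2 (-0.52) fell as well, and Myoz2, a calcineurin-binding Z-disc protein, rose by 0.65. By list, and beside the 14.1% of all genes, TKO had calls for 9 of 18 thin filament genes (50%), of which 7 fell and 2 rose (median log2 ratio -0.32). The other contractile lists had more rises than falls. Of 11 thick filament genes 3 rose and 2 fell (45.5%, median -0.12). Of 31 genes of titin, Z-disc and M-band 6 rose and 4 fell (32.3%, median 0.17). Of 51 oxidative phosphorylation genes 13 fell and 2 rose (29.4%, median -0.27). For the fetal and stress list, 8 members out of 20 were higher and 1 was lower (45%, median 0.41). Of 36 cardiac transcription factors 3 rose and 4 fell (19.4%, median 0.004), a share near that of all genes. Summed markers of the 4 other cell classes lay between 992 and 3904 CPM in the libraries of the other groups and between 1222 and 3780 CPM in the controls. These sums include Acta2, with 777 CPM in Ctrl, 173 in DKO and 114 in TKO. In TKO the median log2 ratio was -0.61 for endothelial, -0.68 for smooth muscle and pericyte, -0.05 for fibroblast and 0.70 for leukocyte markers, and 4 of the 50 tested were called (3 rose and 1 fell). In MKO the median over the 50 was 0.68, with 0 called by edgeR and 18 at an unadjusted p under 0.05. In DKO it was 0.24, with 1 called. Their part in these results was not tested. Myl2 did not pass the test (3361 CPM in Ctrl, 3276 in TKO, log2 ratio -0.04 ± 0.17 SE, edgeR adjusted p = 0.915).

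Among the 500 most abundant control transcripts the largest fall in both other Mrtf groups was that of Acta2, from 777 CPM to 173 in DKO (-2.17 ± 0.27 SE, edgeR adjusted p = 2.23e-05) and 114 in TKO (-2.76 ± 0.27 SE, edgeR adjusted p = 1.38e-07). Kcnip2 fell from 101 CPM to 59.7 in DKO (-0.76, edgeR adjusted p = 0.0243, lost in 7 of its alternatives) and 30.7 in TKO (-1.72, edgeR adjusted p = 1.44e-07). Beside it, Kcnd2 fell in TKO from 41.4 to 17.9 CPM (-1.21 ± 0.25 SE, edgeR adjusted p = 0.00131), while Kcnd3 had 9 CPM in Ctrl and 11.2 in TKO (0.31, edgeR adjusted p = 0.211). The largest rises in TKO among the 500 were those of Nppa (2.92), the chaperone clusterin (Clu, 2.05), the stretch-responsive Ankrd1 (1.78), Neat1 (1.09) and Art3 (1.04). Nppa ranged from 109 to 3924 CPM in TKO and from 50.7 to 403 CPM in Ctrl, so the groups overlap. Neat1 also overlaps, with control libraries between 410 and 1293 CPM and TKO libraries between 637 and 2630 CPM.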

How the data were processed

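Per the labels' protocols, cDNA came from a SMART-Seq kit and libraries from Nextera XT. Per the submitters' processing notes, STAR, featureCounts and DESeq2 were used with mm10; no versions are given in the sources used here. The authors deposited whole-number read counts per gene for 23337 genes with exon lengths, and tables of log2 fold changes. Those deposited log2 values matched a DESeq2 1.42.0 refit within 0.001 for 100% of genes only without Ctrl 3 and DKO 1. No gene lay on the mitochondrial chromosome. Tests used edgeR 4.0.16 in R 4.3.3 with TMM scaling, filterByExpr (minimum count 10) and 24 libraries, and were tested on simulated data. Spread used log2 CPM with a prior count of 2. Samples were grouped by title. Named genes were the 4 markers, the targeted genes with Srf, the 30 highest, all share families, up to 8 members per list, the 15 largest and smallest spreads, and the 5 largest rises and falls per group among the 500 highest. Nebl, Ldb3, Fhl1, Trdn, Tbx20, Irx4, Prox1, Isl1, Klf15, Sdha, Gapdh, Pgk1, Fabp4, Cav1, Tagln, Myh11 and Cnn1 were added after their values were seen. The members and the 34 lists (646 of 654 entries matched) were chosen with earlier results of these data known. Exon overlap and shared words came from GENCODE M21. Alternatives were other scalings, filters, DESeq2, the replicate number as a block and leaving out libraries. Some genes of these lists are not reported here.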

Additional observations from a re-analysis of the deposited data

Results flagged for a closer look

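Of 59 control values examined for a library far from the other 5 (Dixon's criterion, gap over range above 0.625), 11 were marked (18.6%), where chance would mark about 5%. The values share libraries and genes, so they are not independent. In Ctrl 3, the Myl7 level of 57.1 CPM stood above the 1.33 to 10.7 CPM of the others, Acta1 at 342 CPM above 56.8 to 156, and Atf3 at 243 CPM above 15.7 to 95.5. The shares of Acta1 (1.18%), Myl7 (1.62%) and Myl4 (0.356%) in their pairs were also high in Ctrl 3, beside at most 0.575%, 0.390% and 0.129% in the other 5. In Ctrl 2, the summed endothelial markers (1846 CPM) stood above 179 to 634 CPM, Pecam1 (194 CPM) above 18.5 to 71.3, Kdr (368 CPM) above 33.1 to 135 and Fabp4 (312 CPM) above 29.1 to 92.7. In Ctrl 4 the length-scaled level of Klf15 was 128, beside 39.8 to 71.2 in the other 5.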

How the results depend on the processing

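The median SD of log2 CPM between the control libraries was 0.255 with no filter on low counts (0.159 with it) and between 0.142 and 0.168 with 1 library left out. The 100 highest genes held 38.8% by counts without length, and 43.7 to 44.4% of the level with 1 library left out. Of the recomputed levels of 37 genes, 258 moved by less than 1 SD and 1 moved further. Of the 24 isoform share tests, 5 passed with all libraries, 0 with the replicate block (which cannot give a p under 0.0312), 0 without Ctrl 3 and DKO 1, 0 without Ctrl 2 and Ctrl 3 (chosen after seeing the data), and between 0 and 8 with 1 library left out. Among the 100 most abundant transcripts the 1 call in DKO became 0 with no filter, 3 with DESeq2, 2 with the replicate block, 2 without Ctrl 3 and DKO 1, 0 with only both groups in the fit, and 0 to 3 with 1 library left out. The 26 calls in TKO became 48 without Ctrl 3 and DKO 1, 43 with only both groups, and 19 to 29 with 1 library left out. The 0 calls in MKO stayed at 0 in those fits. Of the named single genes, Alas1 lost its DKO call in 9 alternatives, Casq2 in 11, Ucp2 in 11, Kcnip2 in 7 and Dstn in 1, and Acta2, Actc1, Alas1, Ankrd1, Art3, Ckm, Clu, Kcnip2, Myh6, Neat1 and Nppa kept their TKO calls in every alternative run; the other genes named for TKO were not recomputed one by one. The 1 relation that passed became 0 with the mean of the members' log2 CPM and 0 with any library left out. In the latter case 5 libraries allow few pairings, and r stayed between -0.993 and -0.972. The correlation of Acta2 with mural markers ran from -0.0557 (without Ctrl 2) to 0.382, and that of immediate early genes with the markers of other cells from -0.404 (without Ctrl 2) to 0.622, with -0.0233, -0.0747 and -0.0865 without Ctrl 1, Ctrl 4 and Ctrl 6. The cause of these changes was not tested. Same-numbered libraries did not deviate together throughout: the correlation of their deviations was -0.0595 to 0.642 for MKO, -0.218 to 0.185 for DKO and -0.011 to 0.311 for TKO, and 3, 0 and 2 control libraries correlated best with their own number. Depth limits genes near the floor of 3 counts.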
